A study of Rattus norvegicus with 24 samples.

Results

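Metabotropic glutamate receptors were followed in retinas of diabetic and control rats through the probes whose RefSeq accession carries the symbol Grm2, Grm3, Grm4, Grm5, Grm6, Grm7 or Grm8. Of these 7 genes, 5 had such a probe on the array, among 4013 genes with a symbol, and they were read by 6 of 33849 probes for rat transcripts. Grm5 had 2 probes, GE20272 and GE21551, and Grm4 (GE1219128), Grm6 (GE21566), Grm7 (GE21577) and Grm8 (GE1122515) had 1 each. No probe was matched to Grm2 or Grm3, which were not analysed here. Retinal RNA came from male Sprague Dawley rats, on 24 CodeLink rat whole genome arrays. Each array was taken as 1 rat, with 6 rats in each of 4 groups. The paper lists 5 control rats at 1 month for its microarrays, but 6 arrays of that group were available and all were used. Diabetic rats (STZ) had received an intraperitoneal injection of streptozotocin, a toxin of the insulin-producing beta cells, and control rats the sodium citrate vehicle alone, and retinas were taken 1 month (1M) or 3 months (3M) later. Only rats with high blood glucose after the injection entered the STZ groups, and no insulin was given. The whole retina was measured, so that fewer cells of a type and less RNA per cell cannot be told apart.

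Metabotropic glutamate receptors are G protein-coupled receptors that slow or tune signalling, in contrast to the ionotropic receptors, which are channels opened by glutamate. Group I receptors, such as Grm5, act through Gq and phospholipase C, whereas group II (Grm2 and Grm3) and group III (Grm4, Grm6, Grm7 and Grm8) act through Gi and Go and mostly lie on presynaptic terminals, where they hold back transmitter release. Grm6 encodes mGluR6, the exception in the retina: it sits on the dendrites of ON bipolar cells, and glutamate released by photoreceptors in the dark acts through it and Go to close the TRPM1 channel. Loss of mGluR6 abolishes the ON response, seen as the b-wave of the electroretinogram.

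Levels are given as scaled intensity, the background-subtracted brightness of a spot divided by the median of the rat probes on its array, and differences as log2 of that value. Before scaling, array medians ranged from 124 to 360, and the spread of log2 values (interquartile range) was 3.36 to 3.67 on the 1 month arrays, 1.48 to 2.23 on the 3 month control arrays and 2.07 to 2.70 on the 3 month STZ arrays. The 62 bacterial control probes, which should find no target in rat RNA, gave the background. Their median level was 0.113 and 0.0862 in the 1 month control and STZ groups, and 0.683 and 0.557 in the 3 month groups. A probe was tested when its median over the 24 arrays lay above 0.554, which left 22025 rat probes and 3 of the 6 receptor probes: Grm6, Grm4 and Grm5 GE20272. The receptor probe nearest above this limit was Grm5 GE20272 at 0.959, and that nearest below it was Grm7 at 0.536. Of marker genes for retinal cells, 5 of 14 rod genes and 10 of 13 amacrine cell genes had a tested probe, but only 2 of 14 bipolar cell genes (Grik1 and Tacr3).

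**Figure D1:**
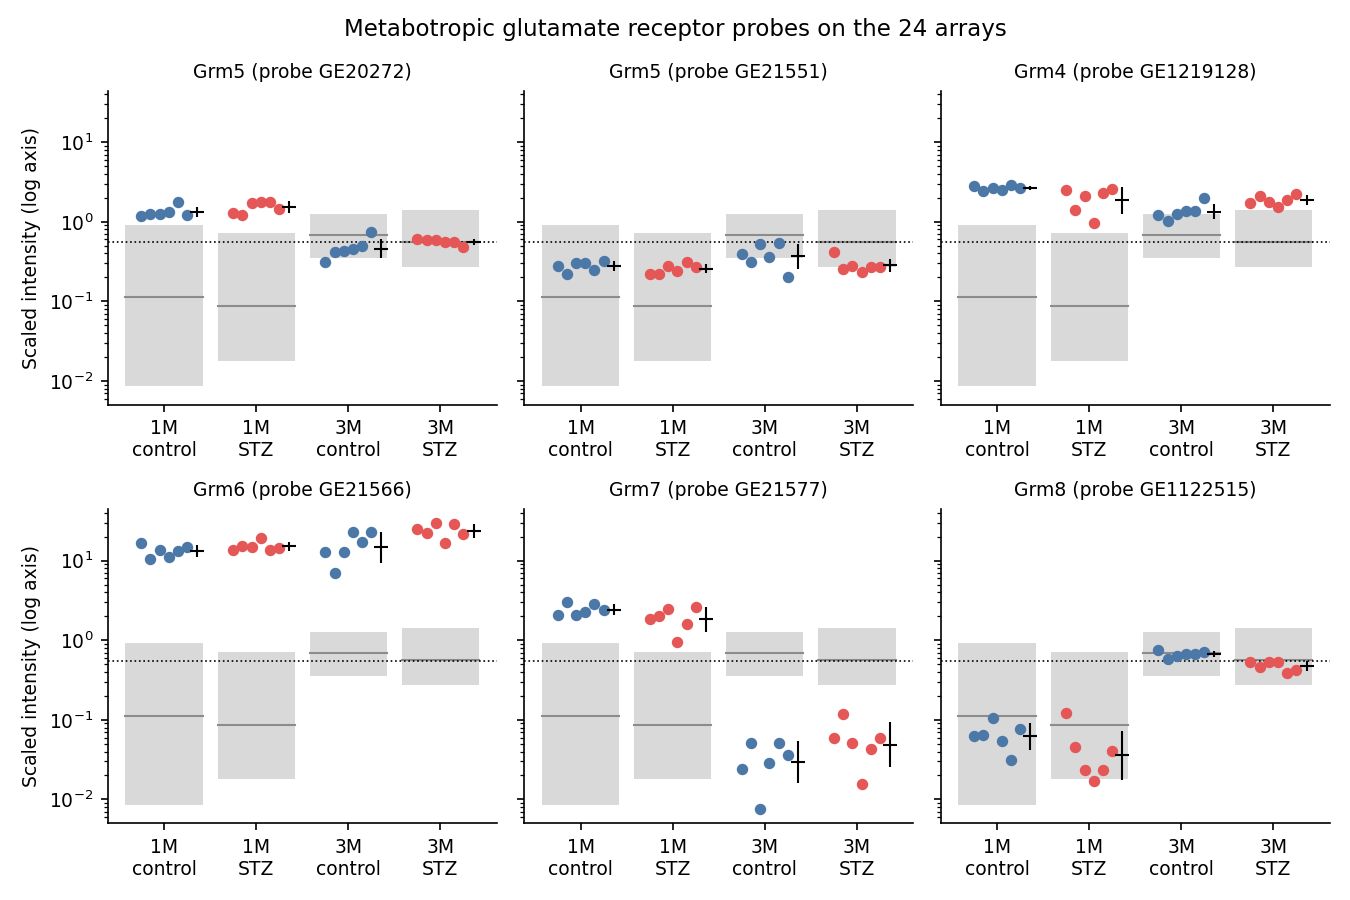
Scaled intensity (log axis) of the 6 receptor probes on each of the 24 arrays, by group. Blue points are control and red points STZ arrays, black bars the mean ± SD of log2 values (n = 6), the grey box the 5th to 95th percentile and the grey line the median of the bacterial probes (each the median over the arrays of a group), and the dotted line the limit for testing at 0.554. Grm6 lay above the grey box on all 24 arrays, and Grm7 lay above it on the 1 month arrays and below it on the 3 month arrays.

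Grm6 was the only receptor probe to exceed the bacterial 95th percentile on all 24 arrays. In 1 month retinas its scaled intensity ranged from 10.6 to 16.9 (median 13.4) in controls and from 13.5 to 19.5 (median 14.8) in STZ rats. In 3 month retinas it ranged from 6.98 to 23.0 (median 15.0) in controls and from 16.6 to 29.5 (median 23.5) in STZ rats. The groups overlapped at both times, and the widest spread was that of the 3 month controls, where rat 2 gave the lowest value of all 24 arrays and rats 4 and 6 both gave 23.0.

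At 3 months Grm6 rose by 0.67 ± 0.21 on the log2 scale (SE, 1.59-fold, limma adjusted p = 0.013). This difference has to be read against the shift of the arrays as a whole, because the median of all tested probes was 0.44 in the same comparison, and Grm6 exceeded that median by 0.22. After quantile normalization, which gives every array the same distribution of values, the Grm6 difference was -0.02 (limma adjusted p = 0.94). The call on Grm6 thus depended on how the arrays were scaled. Under median scaling it was also lost with the methods' test and with array brightness as a covariate. With array spread as a covariate in the model, the Grm6 difference was 0.12 (limma adjusted p = 0.93). That model called 0 of the 22025 tested probes at 3 months, so it cannot tell Grm6 from the rest of the array.

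Grm4, a group III receptor that acts as an inhibitory autoreceptor on presynaptic terminals, gave tightly grouped values in 1 month controls, from 2.47 to 2.88 (median 2.68). In 1 month STZ rats it ranged from 0.959 to 2.56 (median 2.22), with rats 2 and 4 low at 1.39 and 0.959 and the other 4 between 2.12 and 2.56. In 3 month retinas it ranged from 1.02 to 2.01 (median 1.31) in controls and from 1.52 to 2.26 (median 1.84) in STZ rats. Control rat 6, at 2.01, was the 3 month control that reached into the STZ range, and the other 5 controls lay below all 6 STZ rats. Grm4 exceeded the bacterial 95th percentile on 23 of the 24 arrays.

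At 3 months Grm4 rose by 0.47 ± 0.19 (SE, 1.39-fold, limma adjusted p = 0.042), close to the 0.44 of the median probe. Its call was lost when any of 9 single 3 month arrays was left out (control 1, 2, 3, 4 or 5, STZ 2, 3, 5 or 6). After quantile normalization the difference was 0.29 (limma adjusted p = 0.23). The call was also lost with array brightness as a covariate (0.42, limma adjusted p = 0.15) and with the methods' test. With array spread as a covariate the difference was -0.0033, in a model that called 0 of the 22025 tested probes at 3 months.

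Grm5 is the group I receptor best known from postsynaptic sites. Its probe GE20272 ranged from 1.18 to 1.76 (median 1.26) in 1 month controls and from 1.197 to 1.77 (median 1.59) in 1 month STZ rats. In 3 month retinas it ranged from 0.312 to 0.743 (median 0.447) in controls and from 0.477 to 0.615 (median 0.572) in STZ rats. It lay above the bacterial 95th percentile on all 12 arrays of 1 month and on 0 of the 12 arrays of 3 months, so that at 3 months neither group had a level clear of background. The measured difference at 3 months was 0.29 ± 0.16 (SE, limma adjusted p = 0.13), and after quantile normalization it was 0.95 (limma adjusted p = 0.0048). Subtracting the 5th percentile of the rat probes from each array gave 1.49 (limma adjusted p = 0.026). The probe was tested through its 1 month levels, and these 3 month differences are between 2 groups at background, so none of them is a measured fold.

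Counted together, 2 of the 3 tested receptor probes were called at 3 months, both higher, where 54.1% of all tested probes were called and 50.5% were called higher. The call asked for an adjusted p under 0.05 together with a difference of 1.2-fold or more. With 3 probes this share does not set the receptors apart from the rest of the array. Quantile normalization called 31.5% of all tested probes and 1 receptor probe, Grm5 GE20272, which was not above background at 3 months, and it changed the split of all calls from 11130 higher and 781 lower to 5424 higher and 1524 lower. Both tested bipolar cell genes were called higher. Their summed level ranged from 1.05 to 3.40 in 3 month controls and from 2.48 to 4.32 in STZ rats. Of these, Tacr3 lay under the bacterial 95th percentile on all 3 month arrays (controls 0.185 to 0.433, STZ 0.409 to 0.574). Its difference is not a measured fold. Of the 15 lens genes, from a tissue next to the retina, 8 were tested and 7 were called higher, with a summed level of 130.0 to 325 in 3 month controls and 407 to 827 in STZ rats. The 5 tested rod genes summed to between 179 and 407 in controls and between 321 and 503 in STZ rats, with 2 of the 5 called higher. The 4 tested genes of microglia and leukocytes summed to between 5.27 and 8.69 in controls and between 8.57 and 13.4 in STZ rats, with 3 of the 4 called higher. After quantile normalization 1 of the 2 bipolar, 3 of the 8 lens, 0 of the 5 rod and 3 of the 4 microglia and leukocyte genes were called higher, and 2 rod genes were called lower. The bipolar gene called there was Tacr3, which was under the bacterial 95th percentile, and Grik1 gave 0.44 without a call. The part of tissue make-up in the receptor values was not tested.

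**Figure D2:**
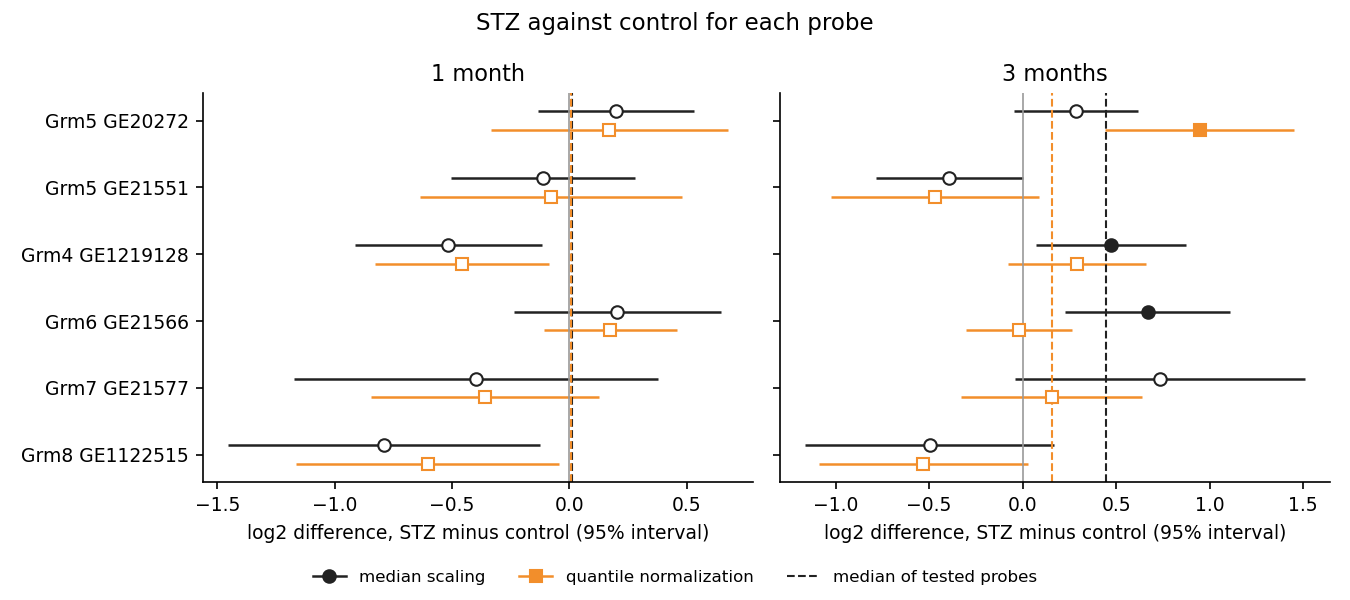
Difference between STZ and control (log2, with 95% interval, n = 6 per group) for each receptor probe at 1 month and 3 months. Circles show median scaling and squares quantile normalization, filled where the probe was called, and dashed lines show the median of all tested probes. Grm6 and Grm4 were called at 3 months under median scaling and Grm5 GE20272, at background in both 3 month groups, under quantile normalization, and no probe was called at 1 month.

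At 1 month none of the 3 tested receptor probes was called by limma, where 0.00908% of all tested probes (2 of 22025) were. Grm4 was lower in STZ rats by -0.52 ± 0.19 (SE, limma adjusted p = 1.00) and was the 1 probe of the 3 with an unadjusted p under 0.05. Without 1 month STZ rat 4, its lowest array, the difference was -0.32 ± 0.17. With all arrays the 95% interval of the difference ran from -0.92 to -0.12. Grm6 differed by 0.20 ± 0.21 (interval -0.24 to 0.64) and Grm5 GE20272 by 0.20 ± 0.16 (interval -0.13 to 0.53), both within the spread between rats. The methods' test, made at each time point with unequal variances allowed, also called 0 of the 3 at 1 month (1.19% of all tested probes), and it called 0 at 3 months (16.9%).

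The difference between the effects of STZ at 3 months and at 1 month was tested as an interaction. Grm4 was the receptor probe called, with an effect 0.99 ± 0.28 (SE) more positive at 3 months (limma adjusted p = 0.028), against a background of 15.5% of tested probes. The 2 effects had opposite signs, -0.52 at 1 month and 0.47 at 3 months. The median of all tested probes was 0.44 in the same contrast. The call was lost without 3 month control 3, 3 month STZ 5 or 3 month STZ 6, and under quantile normalization (0.75, limma adjusted p = 0.057), where 10.8% of tested probes were called. For Grm6 the interaction was 0.46 ± 0.30 (limma adjusted p = 0.23) and for Grm5 GE20272 it was 0.09 ± 0.23 (limma adjusted p = 0.77).

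The 3 probes under the limit were fitted together with all 33849 rat probes, of which 0.0118% were called at 1 month and 46.3% at 3 months. Grm7 and Grm8 are group III receptors of presynaptic terminals, Grm7 being known for its low affinity for glutamate. Grm7 in 1 month retinas ranged from 2.06 to 2.99 (median 2.34) in controls and from 0.954 to 2.65 (median 1.93) in STZ rats, above the bacterial 95th percentile on all 12 arrays. In 3 month retinas the same probe ranged from 0.0076 to 0.052 (median 0.032) in controls and from 0.016 to 0.117 (median 0.055) in STZ rats. On all 12 of these arrays it lay under the 5th percentile of the bacterial probes. The STZ effect on Grm7 was -0.40 ± 0.38 at 1 month (limma adjusted p = 1.00), within the spread between rats. The SE came from 1 variance over the 4 groups. The log2 SD of Grm7 was 0.225 and 0.532 in 1 month control and STZ rats, and 0.881 and 0.948 at 3 months. At 3 months both groups were below background and no fold is given.

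Grm8 did not exceed the bacterial 95th percentile on any of the 24 arrays. It ranged from 0.032 to 0.105 in 1 month controls and from 0.017 to 0.123 in 1 month STZ rats. In 3 month retinas it ranged from 0.576 to 0.756 (median 0.678) in controls and from 0.383 to 0.540 (median 0.497) in STZ rats, with every STZ rat below every control. Among all rat probes 3.6% were lower in STZ rats without overlap at 3 months. The median of the bacterial probes was also lower in 3 month STZ rats (0.557) than in 3 month controls (0.683). The limma test, with 1 variance over the 4 groups, did not call Grm8 at 3 months (adjusted p = 0.20) or at 1 month (adjusted p = 0.85). The log2 SD of Grm8 was 0.576 and 1.03 in 1 month control and STZ rats, and 0.140 and 0.204 at 3 months. The methods' test called Grm8 at 3 months, as it did 18.7% of the rat probes.

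The second Grm5 probe, GE21551, ranged from 0.204 to 0.542 over the 24 arrays and never exceeded the bacterial 95th percentile. It was not called at 1 month (limma adjusted p = 1.00) or at 3 months (limma adjusted p = 0.090). Its measured difference at 3 months was -0.39, opposite in sign to the 0.29 of GE20272. The 2 probes of the gene disagreed, and neither exceeded the bacterial 95th percentile on any 3 month array.

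Levels in control retinas of 3 months and 1 month were compared next. The 2 time points were separate sets of rats, so that age and the set of rats and arrays cannot be told apart. Among the tested probes 68.8% were called in this comparison, and their median difference was -0.52 (3 month control minus 1 month control). Grm4 was lower at 3 months by -0.99 ± 0.19 (SE, limma adjusted p = 7.6e-05), and its groups did not overlap. Of all tested probes, 30.1% were lower without overlap. With array spread as a covariate the Grm4 difference turned to 0.28, without a call. That model called 269 of the 22025 tested probes in this comparison. Grm5 GE20272 was also called lower (limma adjusted p = 8.7e-09), but it passed the limit for testing through its 1 month levels and lay under the bacterial 95th percentile in all 3 month controls. With that percentile as its level there, no fold remained.

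Grm6 was not called in this comparison under median scaling. It differed by 0.16 ± 0.21 (SE, interval -0.28 to 0.60, limma adjusted p = 0.50), which is 0.68 above the median probe, and it was called higher after quantile normalization (0.84, limma adjusted p = 1.1e-05), where 60.1% of all tested probes were called.

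Grm7 was called lower in 3 month controls (limma adjusted p = 4.4e-13) in a fit of all 33849 rat probes that called 75.4% of them. Its groups did not overlap, and 20.8% of all rat probes were lower without overlap. Grm7 was bounded in median-scaled units, with the bacterial 95th percentile as its 3 month level. It was at least 1.78-fold higher in 1 month than in 3 month controls, and at least 1.27-fold in STZ rats. Both bounds hold only if median scaling made the time points comparable, which was not tested. The bacterial median was 0.113 in 1 month and 0.683 in 3 month controls. Of 14689 rat probes above the bacterial 95th percentile on all 12 arrays of 1 month, 25 lay under the bacterial 5th percentile on all 12 arrays of 3 months, and Grm7 was 1 of them. Its 3 month level has only a bound, so the size of the gap was not measured. Grm8 values were higher in 3 month than in 1 month controls without overlap, as were those of 30.8% of all rat probes, but the probe was not above the background at either time and no fold is given.

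**Figure D3:**
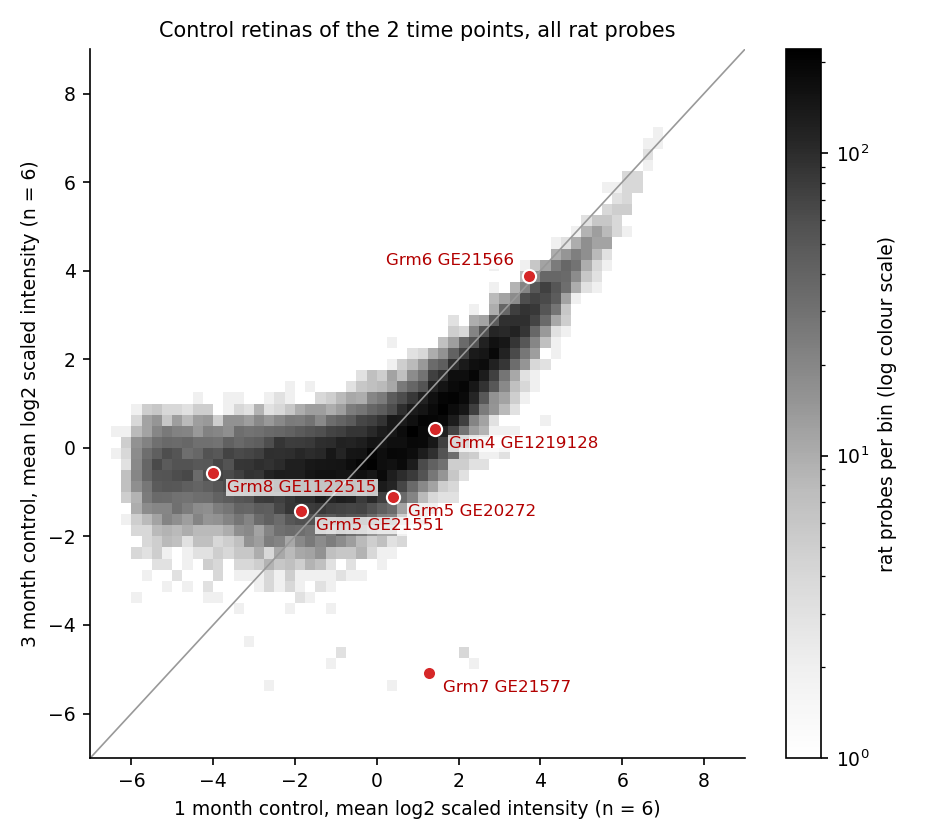
Mean log2 scaled intensity of every rat probe in 1 month controls (x axis) and 3 month controls (y axis), n = 6 each. Grey shading counts probes per bin (log colour scale), the line marks equal levels, and red points are the 6 receptor probes. Grm6 sits on the upper edge of the bulk near the line, Grm4 and both Grm5 probes lie within the bulk, and Grm7 lies apart below it with few other probes.

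The genes whose pattern over the 24 arrays was most like that of each tested receptor were taken from 2811 other genes with a symbol, 1 probe per gene. Grm6 was most like Mapk6 (Pearson r = 0.93, and 0.90 after the group means were removed), Spata7 (0.93 and 0.91) and Clasp2 (0.92 and 0.88). Spata7 encodes a protein of the photoreceptor connecting cilium. Grm4 was most like Tinagl1 (0.89 and 0.81), Ccdc80 (0.87 and 0.83) and Ppm1g (0.87 and 0.72). Grm5 GE20272 was most like Chst3 (0.97 and 0.78), Tpcn1 (0.97 and 0.73) and Ibsp (0.97 and 0.80). These correlations are descriptions of arrays that share their scaling and the gap between time points.

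Genes that work with the receptors were described as 6 lists, 1 probe per gene, beside the 2812 tested genes with a symbol, of which 56.0% were called higher and 3.45% lower at 3 months with a median difference of 0.50. At 1 month limma called 0 genes of the 6 lists, which held 64 distinct tested genes. There, 3 of the 64 had an unadjusted limma p under 0.05, beside 110 of the 2812 genes. The methods' test called 2 of the 64 at 1 month, where it called 1.24% of the 2812 genes. At 3 months the methods' test called 10 of the 64, beside 609 of the 2812 genes.

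The ON bipolar cell cascade downstream of mGluR6 was represented by 4 of its 15 genes, and the channel gene Trpm1 was not among them. At 3 months 3 of the 4 rose and 0 fell, with a median of 0.60. Gnb3, a G protein beta subunit of cones and ON bipolar cells, rose by 0.69 (limma adjusted p = 0.0082). Rgs7, which speeds the shut-off of Go in these cells, rose by 0.62 (limma adjusted p = 0.0073), and Lrit1, a photoreceptor synapse protein, rose by 0.58 (limma adjusted p = 0.0083). Gnao1, the Go alpha subunit itself, differed by 0.30 (limma adjusted p = 0.28). After quantile normalization the median of the list was 0.12, beside 0.17 for all genes, and 1 gene (Lrit1, 0.66) was called. The 3 month control median of Lrit1 was 0.941, under the bacterial 95th percentile (1.27), so the size of its rise was not measured.

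Of the Gi and Go signalling list, 20 of 32 genes were tested, 9 rose and 1 fell at 3 months, and the median was 0.32. After quantile normalization 6 were called higher and 1 lower, and the median was -0.02. Gnai2, a Gi alpha subunit found in many cell types, rose by 1.16 (limma adjusted p = 0.00047). Its STZ values (6.86 to 10.8) lay above all control values (1.86 to 5.59). The share of all probes higher without overlap is not given here, so this gap does not set Gnai2 apart. Rgs19, which shortens Gi signals, rose by 0.98 (limma adjusted p = 0.0016). Both stayed higher after quantile normalization (0.67 and 0.84). Pick1, the scaffold that binds the tail of mGluR7, was called lower (-0.57, limma adjusted p = 0.019). Its STZ values (0.534 to 0.991) lay under the bacterial 95th percentile and its control median was 1.16. The size of its fall was therefore not measured. Grip1, a scaffold of AMPA receptors, gave -0.30 (limma adjusted p = 0.13).

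Of the partners of group I receptors, 14 of 25 genes were tested, 9 rose and 1 fell, and the median was 0.52. After quantile normalization 4 were called higher and 1 lower, and the median was 0.33. Ncdn, which encodes neurochondrin, a binding partner of mGluR5, rose by 0.79 (limma adjusted p = 0.0018), and gave 0.13 without a call after quantile normalization. Homer2, a scaffold that ties group I receptors to calcium stores, had the highest difference (0.88) but was not called (limma adjusted p = 0.21). Its highest STZ array was at 34.4 and its STZ median at 0.613. That median and all its control values (0.526 to 0.985) lay under the bacterial 95th percentile. The difference is not a measured fold. Cyth2, an exchange factor for ARF proteins, fell by 0.48 (limma adjusted p = 0.036), and Gna11, a Gq-class alpha subunit, gave 0.04.

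Of the genes for glutamate release, uptake and recycling, 10 of 15 were tested, 4 rose and 2 fell, and the median was 0.27. After quantile normalization 0 were called higher and 2 lower, and the median was -0.12. Slc1a3, the glutamate transporter GLAST of Mueller glia, rose by 0.88 (limma adjusted p = 0.0021), and gave 0.18 without a call after quantile normalization. Glud1, glutamate dehydrogenase, rose by 0.71 (limma adjusted p = 0.0029), and gave 0.16 without a call after quantile normalization. Slc1a2, the transporter GLT-1 of cones and bipolar cells in the retina, was called lower (-0.60, limma adjusted p = 0.0057), also after quantile normalization (-0.84). Its STZ values (0.687 to 1.06) lay under the bacterial 95th percentile and its control median was 1.29. The size of its fall was therefore not measured.

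Of the ionotropic receptors, 10 of 18 were tested, 3 rose and 2 fell, and the median was 0.21. After quantile normalization 1 was called higher and 1 lower, and the median was -0.04. The gene called higher was Grik4, under the bacterial 95th percentile on all 3 month arrays (controls 0.731 to 0.876, STZ 0.744 to 1.0). Grik1, a kainate receptor subunit of OFF bipolar cells, rose by 0.72 (limma adjusted p = 0.013), and Gria4, an AMPA receptor subunit, fell by 0.70 (limma adjusted p = 0.0043). Grin2a, an NMDA receptor subunit, fell by 0.32 (limma adjusted p = 0.038), and Grin2b, another, gave 0.60 without a call (limma adjusted p = 0.19), with the highest STZ array at 5.06 and the STZ median at 0.473. After quantile normalization Grik1 gave 0.44 and Grin2a -0.22, both without a call, and Gria4 was still called lower (-1.07). Of the other class C and presynaptic inhibitory receptors, 7 of 10 were tested, 5 rose and 0 fell, and the median was 0.55. After quantile normalization 2 were called higher and 1 lower, and the median was 0.42. Adora1, the adenosine A1 receptor, rose by 0.97 (limma adjusted p = 0.00039). Its STZ values of 3.08 to 4.00 lay above the control values of 0.994 to 2.88. As for Gnai2, this gap does not set the gene apart. Drd2, a dopamine receptor, rose by 0.77 (limma adjusted p = 0.0051). Adra2a, an alpha-2 adrenergic receptor, was called higher (0.37, limma adjusted p = 0.044), also after quantile normalization (0.98). It lay under the bacterial 95th percentile on all 3 month arrays (controls 0.362 to 0.65, STZ 0.535 to 0.779). Neither Adra2a difference is a measured fold. Gabbr1, a subunit of the GABA-B receptor, gave -0.51 (limma adjusted p = 0.15). After quantile normalization Drd2 gave 0.42 without a call, and Gabbr1 was the gene called lower (-0.95, limma adjusted p = 0.039).

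**Figure D4:**
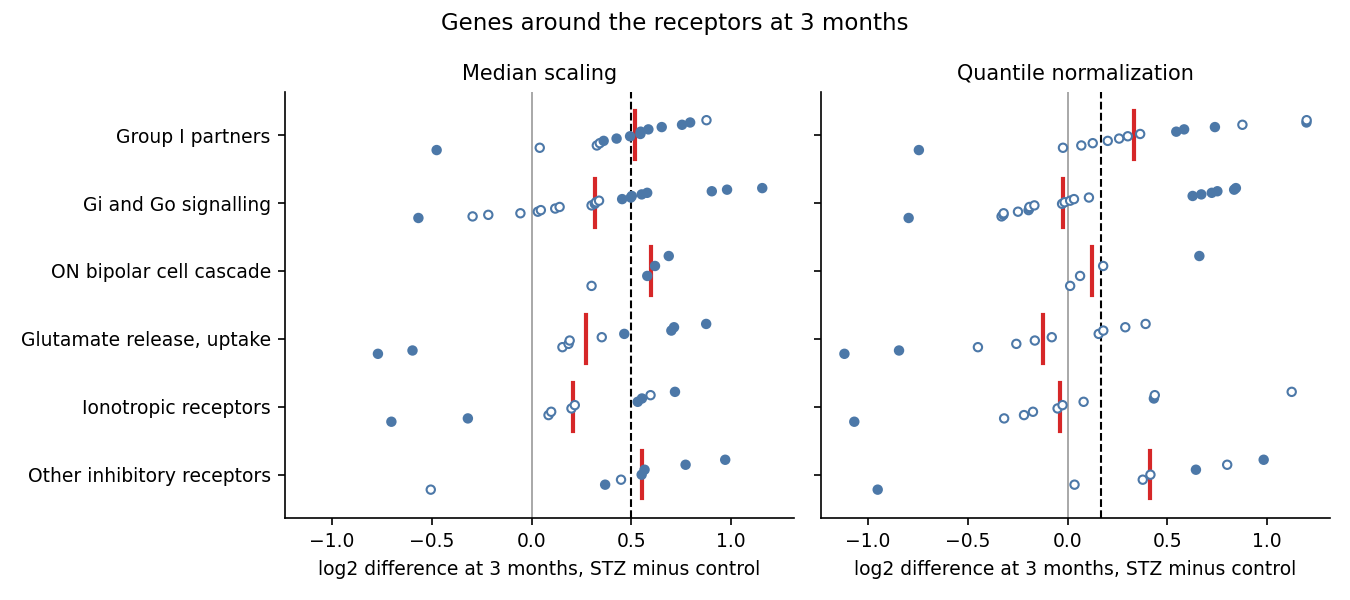
Difference between STZ and control at 3 months (log2) for the tested genes of the 6 lists, under median scaling (left) and quantile normalization (right). Each circle is a gene, filled where called, red bars are list medians and the dashed line is the median of 2812 genes (0.50 and 0.17). The medians of all 6 lists were lower in the right panel than in the left, and so was that of all genes.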

How the data were processed

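Retinal RNA was hybridized in 1 color to CodeLink rat whole genome arrays. According to the authors, spots with manufacturing defects were excluded, local background was subtracted and each array was normalized within itself. The authors deposited each spot's intensity after this subtraction, and a normalized version of it, both on a linear scale. Here the former was divided by the median over rat probes of its array and floored at 0.01 before log2. Probes with a median above the 35th percentile and at least 4 values per group were tested with limma 3.58.1 (R 4.3.3) in 1 model of the 4 groups, and called where the p adjusted by Benjamini-Hochberg was under 0.05 and the difference 1.2-fold or more. Recovery of known changes was tested on simulated data. The software's flags were not used. Precision is limited by 6 arrays per group and by signal over background.

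Symbols came from RefSeq accessions, and 4675 of 33911 probes had one. The files name no genome build, so no coordinates are given. Every receptor probe is named. From each of the 6 gene lists, the 2 genes with the highest and the 2 with the lowest difference at 3 months are named (all of a list of 4), except that some genes of the lists are not reported here. For each tested receptor the 3 genes most correlated over the arrays are named. Members, lists, markers and tests were chosen with earlier results of these data known. The alternatives were quantile normalization over all arrays or within a time point, the deposited normalized values, each array less its 5th percentile, a floor of 0.1, no filter, a limit passed on all 24 arrays, no fold limit, array brightness or spread as a covariate, separate models, the replicate number as a block, the methods' test (p under 0.01 and 1.2-fold) with and without adjustment, and each array left out. Fits of the 3 probes under the limit, made with no filter, were added after seeing the data. Correlations of the deviations of control and STZ rats with the same number ranged from -0.24 to 0.25, so the numbers were not taken to pair rats.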

Additional observations from a re-analysis of the deposited data

Results flagged for a closer look

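The effect of STZ on Grm4 differed between the time points in the interaction test, by 0.99 on the log2 scale (limma adjusted p = 0.028). Among 24 sets of 6 arrays (6 probes in 4 groups), 2 held a value far from the other 5, and chance gives about 1 such set in 20. For Grm5 GE21551, STZ rat 1 was the highest of the 3 month STZ group at 0.417, and its gap to the next value was 0.725 of the range of the group. For Grm5 GE20272, control rat 5 was the highest of the 1 month controls at 1.76, with a gap of 0.711 of the range.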

How the results depend on the processing

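The count of receptor probes called at 1 month was 0 under every alternative run. At 3 months it was 2, and it became 3 with the 5th percentile subtracted, 1 under quantile normalization over all arrays or within each time point (Grm5 GE20272, at background there) and with no filter on dim probes (Grm6), and 0 with brightness or spread of the array as a covariate and with the methods' test, adjusted or not. Leaving out 1 array gave 1 to 3: the call on Grm4 was lost without 3 month control 1, 2, 3, 4 or 5 or STZ 2, 3, 5 or 6, Grm5 GE20272 was called without control 6, and Grm6 was called in all 24 such fits. The count for the interaction was 1, and became 0 under either quantile normalization and with spread as a covariate, and it was 0 to 1 with 1 array left out. Between controls it was 2 (2 to 2 with 1 array left out), 0 with spread as a covariate, 3 under either quantile normalization and with the 5th percentile subtracted (Grm6 joining Grm4 and Grm5 GE20272), 5 with no filter and 1 with a limit passed on all 24 arrays. Separate models and the methods' test give no interaction. With spread as a covariate, 0 of the 22025 tested probes were called at 3 months and 0 in the interaction, and 269 between controls. With brightness as a covariate, 4058 were called at 3 months. The counts of 0 with spread therefore do not set the receptors apart from the rest of the array.

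Signs turned as follows. Under quantile normalization over all arrays and within each time point, Grm6 gave -0.019 and -0.020 at 3 months and -0.19 and -0.19 in the interaction. With spread as a covariate Grm4 gave -0.0033 at 3 months and 0.28 between controls, Grm6 gave -0.10 and Grm5 GE20272 -0.046 in the interaction, Grm7 gave -0.43 at 3 months and -0.055 in the interaction, Grm8 gave -0.15 in the interaction, and Grm5 GE21551 gave 0.15 at 3 months, 0.28 in the interaction and -1.03 between controls. Grm5 GE20272 gave -0.018 in the interaction with brightness as a covariate, and between -0.023 (without 3 month control 1) and 0.23 with 1 array left out. Between controls Grm5 GE21551 gave -1.30 under quantile normalization and -1.47 with the 5th percentile subtracted. For Grm8 a floor of 0.1 gave 0.039 at 1 month and -0.54 in the interaction, and subtraction of the 5th percentile gave -0.25 in the interaction. The causes were not tested. Grm8 at 3 months was called with a floor of 0.1 (limma adjusted p = 0.0012), in separate models of the time points (limma adjusted p = 0.017) and by the methods' test, adjusted or not (adjusted p = 0.031).

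With the replicate number as a block, Grm4 had an adjusted p of 0.027 and Grm6 of 0.015 at 3 months in limma, and the counts stayed at 0, 2, 1 and 2, so this pairing changed no call. Signal over background limits Grm7 and Grm5 GE20272 at 3 months and Grm8 and Grm5 GE21551 at both times.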
